A study of Mus musculus with 12 samples.

Results

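The 6 genes described here encode glycoproteins, other than collagens, of the tectorial membrane and of its attachments: the tectorins Tecta and Tectb, the otogelins Otog and Otogl, Otoa (otoancorin) and Ceacam16. They were chosen by name, with earlier results of these data known, and are 6 of the 19938 genes that the array names with a single symbol. A gene was tested when its mean log2 signal was above 6 in at least 1 group, which 16306 genes met, and 6 of the 6 members were among these with every one of their group means above 6. Where a gene had several entries on the array, that with the highest 12-array mean was used. Otogl has 2 entries and each other member has 1.

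The cochleae came from wild-type C57BL/6 mice at postnatal day 0 (P0) and postnatal day 8 (P8), with no transgene or treatment in any group. Each sample is 1 region of the cochlear duct without its bony shell, so that sensory epithelium, limbus and lateral wall are measured together. Each array holds RNA of many pooled animals, and each age was dissected in 2 independent sets of about 80 temporal bones. The 6 groups, named P0-base to P8-apex, therefore hold 2 arrays each, 1 per dissection set, and the regions of a given age and set come from the same pool. The sample titles tell the sets apart only by a year. Dissection and anything else that differed between the years cannot be told apart. In such bulk tissue, fewer cells of a type and less RNA per cell cannot be told apart.

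The tectorial membrane is an extracellular gel that lies over the hair bundles of the organ of Corti. Its collagen fibrils are embedded in a matrix of non-collagenous glycoproteins, in which α-tectorin (Tecta) and β-tectorin (Tectb), which share a zona pellucida (ZP) domain, form a striated sheet. The membrane is laid down by cells of the greater epithelial ridge, by supporting cells and by the interdental cells of the spiral limbus, around birth and after it. Otogelin and otogelin-like (Otog, Otogl) are large mucin-like proteins of the acellular membranes of the inner ear. Otoancorin tethers the membrane to the apical surface of the limbal cells, and Ceacam16 is a secreted immunoglobulin-like protein that binds α-tectorin. The human counterparts of most of these genes are mutated in inherited hearing loss. Stiffness and width of the membrane change along the cochlea, and the question of the comparisons is how the levels of its genes differ along that tonotopic axis at birth and at P8.

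The sequence upstream of each start is shown because Tecta, Tectb and Otog are members whose signal was higher toward the apex, with Otoa as a member whose signal was not. The windows are the 250 bases before the RefSeq starts in GRCm38.p6, read 5′ to 3′ on the gene's strand, and were found for 4 of the 6 members, with 2 starts for Tecta. Capitals mark the cores ACAAAG and ACAATG of SOX transcription factors on either strand.
Tecta, outer start, chr9:42401691-42401940, minus strand: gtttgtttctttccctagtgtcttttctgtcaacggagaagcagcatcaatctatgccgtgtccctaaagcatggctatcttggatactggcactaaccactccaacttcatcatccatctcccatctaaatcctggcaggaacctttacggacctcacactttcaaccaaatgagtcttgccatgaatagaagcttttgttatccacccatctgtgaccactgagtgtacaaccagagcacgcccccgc
Tecta, inner start, chr9:42399948-42400197, minus strand: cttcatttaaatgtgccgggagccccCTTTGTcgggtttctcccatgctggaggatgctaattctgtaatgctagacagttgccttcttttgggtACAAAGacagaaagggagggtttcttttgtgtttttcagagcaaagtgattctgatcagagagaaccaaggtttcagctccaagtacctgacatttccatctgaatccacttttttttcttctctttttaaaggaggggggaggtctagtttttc
Tectb, chr19:55180476-55180725, plus strand: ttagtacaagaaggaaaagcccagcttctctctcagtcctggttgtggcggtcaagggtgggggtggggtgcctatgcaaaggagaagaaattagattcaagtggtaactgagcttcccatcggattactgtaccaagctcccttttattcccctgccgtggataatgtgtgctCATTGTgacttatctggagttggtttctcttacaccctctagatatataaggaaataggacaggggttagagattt
Otog, chr7:46240737-46240986, plus strand: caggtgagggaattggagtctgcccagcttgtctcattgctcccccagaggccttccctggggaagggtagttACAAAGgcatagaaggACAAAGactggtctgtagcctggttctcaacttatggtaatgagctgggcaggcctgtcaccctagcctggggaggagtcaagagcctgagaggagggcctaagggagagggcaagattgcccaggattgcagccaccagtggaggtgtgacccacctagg
Otoa, chr7:121083174-121083423, plus strand: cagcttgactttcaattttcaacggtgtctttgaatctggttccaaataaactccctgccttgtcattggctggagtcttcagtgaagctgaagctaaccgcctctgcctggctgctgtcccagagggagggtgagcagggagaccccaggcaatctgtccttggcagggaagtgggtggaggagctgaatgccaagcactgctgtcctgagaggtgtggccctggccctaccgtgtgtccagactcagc
The core ACAAAG occurred 2 times before the inner start of Tecta and 2 times before Otog, and 16.5% of the 32851 promoter windows of the same length held it. ACAATG occurred 1 time before Tectb and in 10.7% of all windows. The E-box CANNTG, found in 66.2% of all windows, occurred 2 times before each start of Tecta, 1 time before Tectb and 1 time before Otog. None of these E-box matches overlapped a SOX core. The letters TATAAA (12.4% of windows), the nuclear receptor half-site AGGTCA (14% of windows) and the TEAD core GGAATG (12.6% of windows) were in none of the 5 windows, and the Otoa window held none of the 6 motifs. All 6 were searched on both strands and were picked after the signals were known. The matches are a description of the letters.

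Markers of the labelled organ were read as means over lists. The mean log2 signal over 10 hair cell genes was 7.53 to 8.58 in the 12 arrays, and that over 14 genes of supporting cells and the greater epithelial ridge was 9.24 to 10.02. The median over the tested genes was 8.02 to 8.19 in the arrays. The hair cell mean lay below it in every P0 and P8-base array, and the mean of the 14 genes above it in all 12. The median over all entries lay between 7.21 and 7.29 in each array, and the paired arrays of a group had an SD of 0.175 at the median over all combinations of gene and group. The second principal component over all tested genes, with 36.4% of the variance, separated the dissection sets, and the first, with 42.5%, separated the ages. The mean over 4 skeletal muscle genes was 8.73 in the first-set array of P0-apex and 7.03 to 7.61 in the other P0 arrays. The P0 apex-base calls of Tectb and Otogl with the dissection set as a term were both lost without that array, as they were without any other array of the P0 base or apex. The part of muscle in the member values was not tested. The bone list, with 3 tested genes, had a mean of 9.91 in P8-base, 9.25 in P8-middle and 8.82 in P8-apex.

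**Figure D1:**
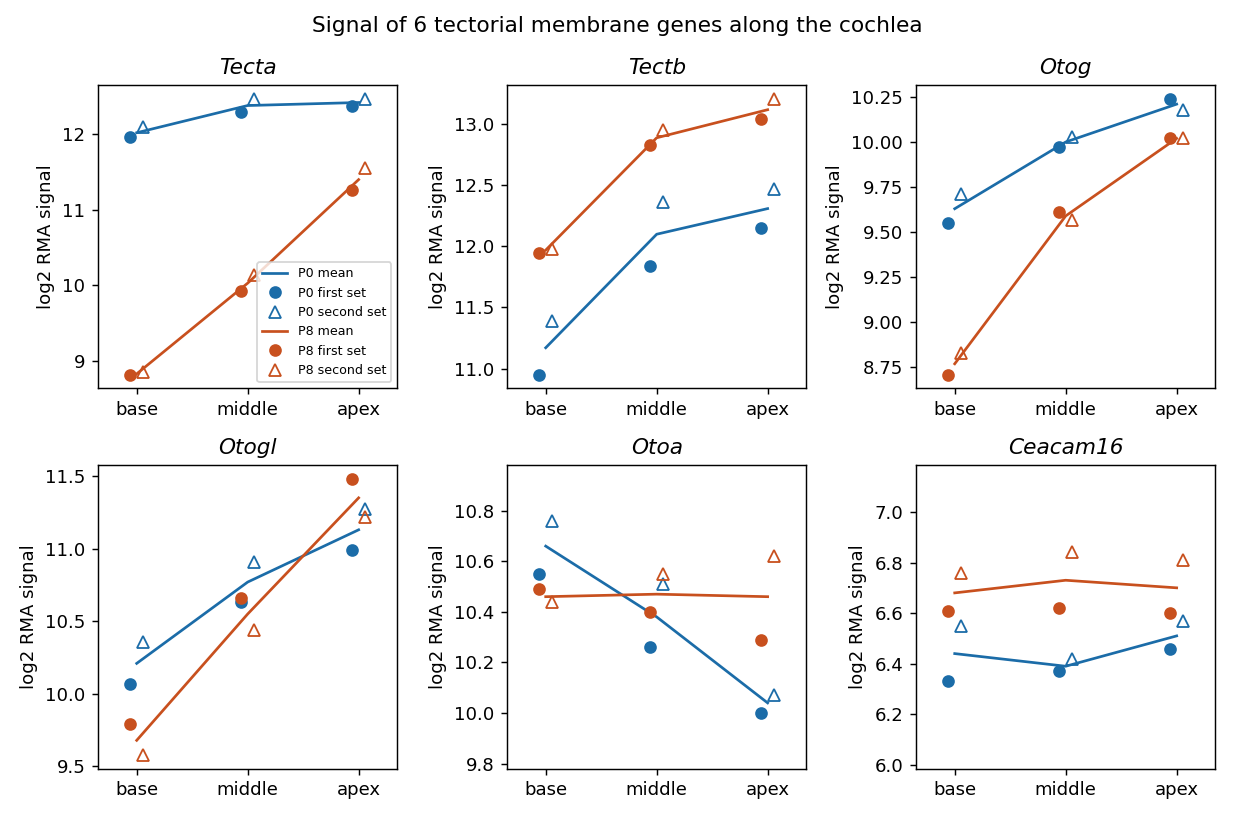
Log2 RMA signal of each of the 6 genes by region at P0 (blue) and P8 (orange). Filled circles are the first and open triangles the second dissection set, lines join the means of the 2 arrays, and each panel has its own vertical scale. The P8 line of Tecta runs from a basal 8.83 to an apical 11.40, while its P0 line stays between 12.02 and 12.42.

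Tecta, the α-tectorin gene, had a small difference along the cochlea at P0 and a large one at P8. At P0 its log2 signal in the first and second set was 11.96 and 12.09 for base, 12.30 and 12.47 for middle and 12.38 and 12.46 for apex. At P8 it was 8.82 and 8.85 for base, 9.92 and 10.14 for middle and 11.26 and 11.55 for apex. Every P8 array lay below every P0 array, and only the P0 middle and apex overlapped.

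The P8 apex signal of Tecta was 5.94-fold that of the base (log2 difference 2.57 ± 0.15, SE, n = 2 arrays a group, adjusted p = 0.000768 by limma with Benjamini-Hochberg adjustment over all tested genes). A gene was called when this adjusted p was under 0.05 and the fold was at least 1.5. The difference ranked 1 of 16306 genes by size in either direction. It was 2.44 in the first set and 2.70 in the second. The middle stood 46.4% of the way from base to apex on the log2 scale, with a step of 1.19 ± 0.15 from base to middle and of 1.38 ± 0.15 from middle to apex. Neither step passed the limma test (adjusted p = 0.218 and 0.140), and both passed once the dissection set was added as a term (adjusted p = 0.00369 and 0.00176). Without the middle array of the first set or the base array of the second, the lower step no longer passed in that fit (adjusted p up to 0.127), nor did the upper step without the second-set apex array (adjusted p = 0.0503).

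At P0 the apex-base difference of Tecta was 0.40 ± 0.15, a fold of 1.32, and did not pass the limma test (adjusted p = 1, and 0.203 with the dissection set as a term). Of that difference, 0.36 lay between base and middle and 0.04 between middle and apex. The apex-base difference at P8 exceeded that at P0 by 2.17 ± 0.21. This missed the threshold in the limma fit (adjusted p = 0.0581) and passed with the dissection set as a term (adjusted p = 0.000584).

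Tecta was the member with the largest change with age. Over the 3 regions its signal fell from a mean of 12.27 at P0 to 10.09 at P8 (log2 difference -2.19 ± 0.09, limma adjusted p = 3.40e-06). The fit over the 3 regions treats the arrays of 1 pool as independent, although each age has 2 pools. The SE and p-values over the 3 regions, for this and every other gene, can therefore be too small. The fall was graded. Base tissue had -3.19 ± 0.15 (limma adjusted p = 6.06e-05), middle -2.36 ± 0.15 (0.000201) and apex -1.02 ± 0.15 (0.00684). In the base this was the lowest P8 over P0 value of all 16306 genes, with a P8 signal 0.110 times that at P0. Without the apex array of the first P8 set, the fall in the apex no longer passed (limma adjusted p = 0.0652).

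On these arrays Tectb, the β-tectorin gene, was graded at both ages by nearly the same amount. At P0 its log2 signal in the first and second set was 10.95 and 11.39 for base, 11.84 and 12.36 for middle and 12.15 and 12.47 for apex. The P8 values were 11.95 and 11.98 for base, 12.83 and 12.95 for middle and 13.04 and 13.21 for apex. The apex arrays lay above the base arrays at each age, and in each region both P8 arrays lay above both P0 arrays. Ordered by mean, P8-base overlapped P0-middle, and P0-middle overlapped P0-apex.

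The apex-base difference of Tectb was 1.14 ± 0.22 at P0 and 1.15 ± 0.22 at P8, folds of 2.21 and 2.22. Neither passed the limma test (adjusted p = 0.333 and 0.138), and both were called with the dissection set as a term (adjusted p = 0.00761 and 0.00185). In that fit the P0 call was lost without any 1 of the 4 arrays of the P0 base and apex (adjusted p up to 0.0826), and the P8 call without the base array of the second set (adjusted p = 0.05004). The change of the difference between the ages was 0.01 ± 0.31, with a 95% interval from -0.69 to 0.71. A change of up to about 0.7 in either direction thus lay within the error of the array values. The study's quantitative RT-PCR gave Tectb a larger apex-to-base ratio at P8 than at P0.

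Most of the Tectb difference lay between base and middle, where the step was 0.93 ± 0.22 at P0 and 0.92 ± 0.22 at P8, against 0.21 ± 0.22 and 0.23 ± 0.22 between middle and apex. The middle stood 81.4% of the way from base to apex at P0 and 79.9% at P8. Among these steps, the P8 step from base to middle passed with the dissection set as a term (adjusted p = 0.0442), a call that held in 2 of the 12 fits that left out an array (adjusted p up to 0.446), and no step passed in the limma fit. With age the signal of Tectb differed by 0.80 ± 0.22 (base), 0.79 ± 0.22 (middle) and 0.81 ± 0.22 (apex; limma adjusted p = 0.0921, 0.0913 and 0.0778). With the dissection set as a term all were called higher (adjusted p = 0.00265, 0.00270 and 0.00217), as were 6.27%, 6.16% and 6.00% of all genes. In each P8 over P0 comparison, that term takes out 1 shift common to both ages, although the ages of a set are different pools. The call in the middle was lost without the P0-middle array of the first set (adjusted p = 0.0512). The mean over the 3 regions passed the limma test (0.80 ± 0.13, adjusted p = 0.00259) with a fold of 1.74, under the 2-fold that the call over the 3 regions required.

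The tectorins thus had opposite signs with age, Tecta at -2.19 and Tectb at 0.80 over the 3 regions, and the apex arrays of both lay above their base arrays at P8.

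Otog encodes otogelin. Its log2 signal at P0 in the first and second set was 9.55 and 9.71 for base, 9.97 and 10.03 for middle and 10.24 and 10.18 for apex. At P8 it was 8.71 and 8.83 for base, 9.61 and 9.57 for middle and 10.02 and 10.02 for apex. At each age the 3 regions did not overlap, and in each region both P8 arrays lay below both P0 arrays.

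At P8 the apex signal of Otog was 2.38-fold that of the base (1.25 ± 0.12, limma adjusted p = 0.0138), with 1.31 in the first set and 1.19 in the second. At P0 the difference was 0.58 ± 0.12 (limma adjusted p = 0.411). With the dissection set as a term its adjusted p was 0.0467, but the fold of 1.499 stayed under 1.5. The change of the difference between the ages, 0.67 ± 0.17, did not pass in either fit (limma adjusted p = 1, and 0.207 with the dissection set). At P8 the middle stood 65.5% of the way from base to apex, and the step from base to middle, 0.82 ± 0.12, did not pass by limma (adjusted p = 0.309) and passed with the dissection set as a term (adjusted p = 0.0308) and with a term for each pool (0.00288). The call with the dissection set held in 4 of the 12 fits that left out an array (adjusted p up to 0.363).

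Otog fell with age in the base (-0.86 ± 0.12, limma adjusted p = 0.00674). In the middle the P8 minus P0 difference was -0.41 ± 0.12 and in the apex -0.19 ± 0.12 (limma adjusted p = 0.119 and 0.458). Without the base array of the first P8 set, the call in the base was lost (limma adjusted p = 0.0684). Over the 3 regions the difference was -0.49 ± 0.07 (limma adjusted p = 0.00165), under the 2-fold of that call.

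Otogl, the otogelin-like gene, had a log2 signal at P0 in the first and second set of 10.07 and 10.36 for base, 10.63 and 10.91 for middle and 10.99 and 11.27 for apex. The P8 values were 9.79 and 9.58 for base, 10.66 and 10.44 for middle and 11.48 and 11.22 for apex. The second set was the higher of the pair in each P0 group and the lower in each P8 group. Regions did not overlap within an age, while the middle and the apex overlapped between the ages.

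The apex signal of Otogl at P8 was 3.18-fold that of the base (1.67 ± 0.19, limma adjusted p = 0.0198), with 1.70 in the first set and 1.64 in the second. At P0 it was 1.89-fold (0.92 ± 0.19, limma adjusted p = 0.411), with 0.91 and 0.92 in the sets. The P0 difference was called with the dissection set as a term (adjusted p = 0.0452), which held in 4 of the 12 fits that left out an array (adjusted p up to 0.391). The middle stood 51.9% of the way at P8, with 51.8% and 52.0% in the sets. The change of the difference between the ages was 0.75 ± 0.26 (limma adjusted p = 1, and 0.510 with the dissection set). It passed in a fit with a separate term for each pool of 1 age and set (adjusted p = 0.0242), beside 0.589% of all genes.

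With age, Otogl differed by -0.53 ± 0.19 (base), -0.22 ± 0.19 (middle) and 0.22 ± 0.19 (apex), and none of these passed the limma test (adjusted p = 0.212, 0.698 and 0.591). The second entry of Otogl gave apex-base differences of 0.93 ± 0.40 at P0 and 1.66 ± 0.40 at P8, close in size to those of the first. Its arrays spread more between sets, at 8.73 and 7.99 in P8-base and 10.43 and 9.60 in P8-apex, and neither difference passed when all 35556 entries were tested (limma adjusted p = 1 and 0.683).

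In P8 apex over base, 3 of the 6 members (Tecta, Otog and Otogl) were called higher and none lower, where 0.178% of all tested genes were called higher and 0.0184% lower. The apex arrays of 4 members (Tecta, Tectb, Otog and Otogl) lay wholly above the base arrays, as in 15.0% of all genes, and those of none wholly below, as in 11.9%. Otog and Otogl lost that call without any 1 of the 4 arrays of the P8 base and apex (limma adjusted p up to 0.155 for Otog and 0.259 for Otogl), and Tecta kept it without any 1 of the 12 arrays (adjusted p up to 0.0214). With the dissection set as a term 4 of the 6 were called higher, Tectb being added, where the background was 1.13%. The median apex-base difference of the 6 members at P8 was 1.203, and that over all tested genes was 0.00. Because the members were chosen with earlier results of these data known, the shares of all genes are a description. They do not test whether the members are called more often than other genes.

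In P0 apex over base, none of the 6 members was called in the limma fit, where 0.00613% of all tested genes were called. At an unadjusted p under 0.05 and the fold of 1.5, 3 members and 188 genes passed, and the methods' t-test gave 2 members and 71 genes unadjusted and none adjusted. With the dissection set as a term 2 members (Tectb and Otogl) were called higher, beside 0.405% of all genes, and none lower, beside 0.270%. The P0 apex and base arrays did not overlap for 5 members, with 4 higher in the apex, as in 12.0% of all genes, and Otoa lower, as in 9.48%. The median of the 6 at P0 was 0.49, beside 0.03 over all tested genes.

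**Figure D2:**
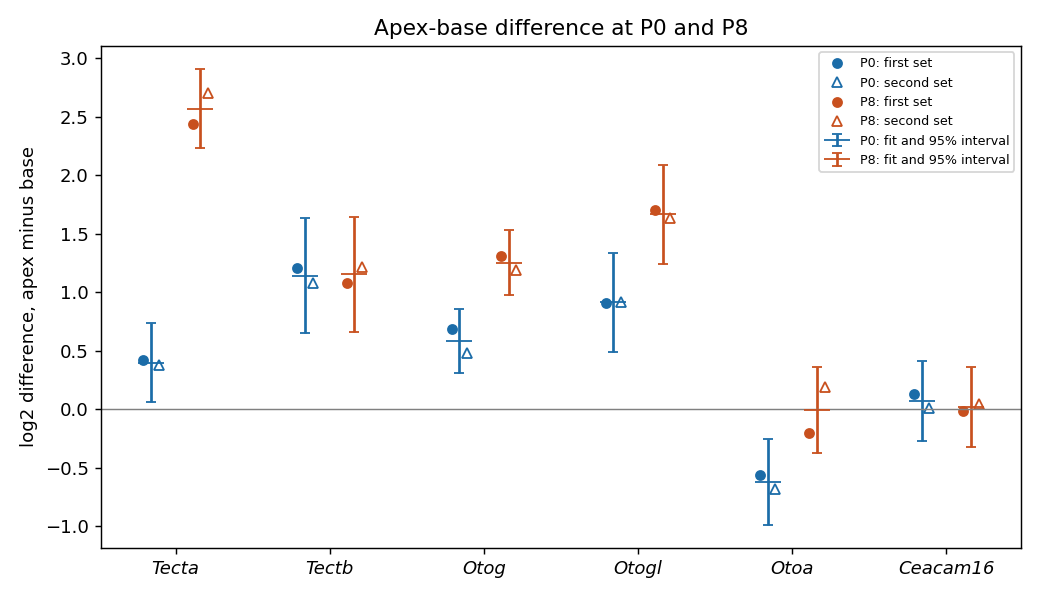
Apex minus base log2 difference of the 6 genes at P0 (blue) and P8 (orange). Circles and triangles are the first and second dissection set, and the dash with its bar is the limma estimate with its 95% interval. Tectb has about 1.1 at both ages, and Tecta has 0.40 at P0 and 2.57 at P8.

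**Figure D3:**
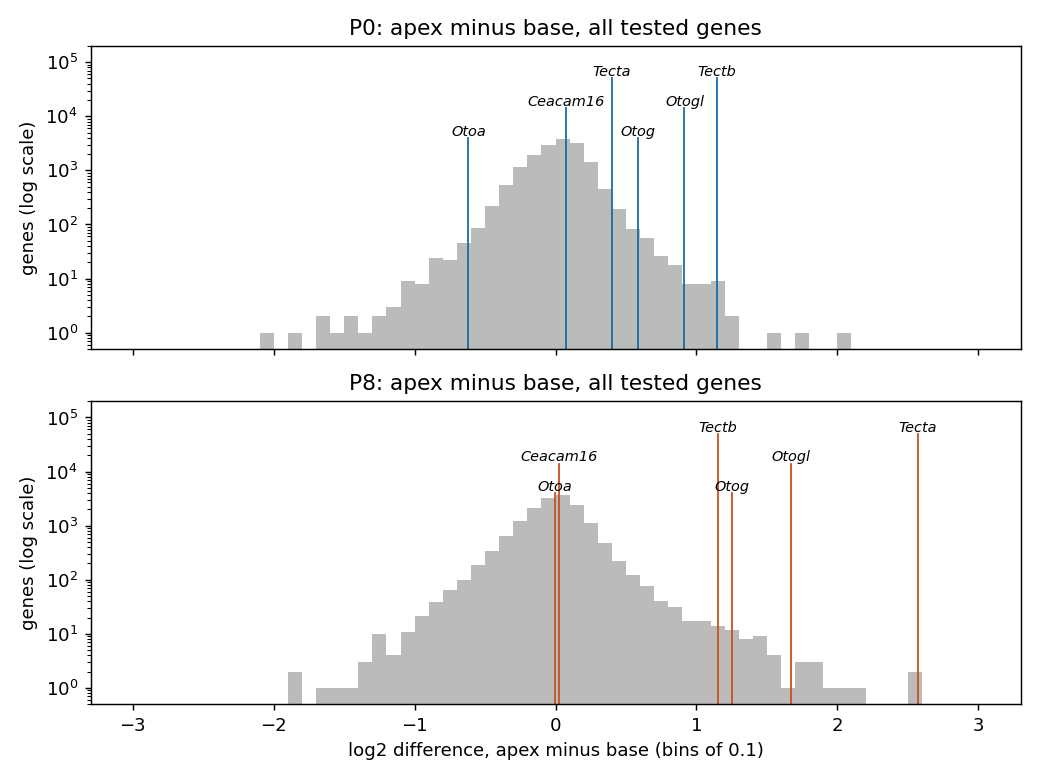
Histograms of the apex minus base log2 difference over all 16306 tested genes at P0 (upper) and P8 (lower), in bins of 0.1 with a log scale for the number of genes. Vertical lines mark the 6 members, and the line of Tecta at P8 stands at 2.57, the largest difference of all tested genes.

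Otoa, whose product anchors the membrane to the spiral limbus, had its highest P0 signal in the base, and its regions had no order at P8. At P0 its log2 signal in the first and second set was 10.55 and 10.76 for base, 10.26 and 10.51 for middle and 10.00 and 10.07 for apex. At P8 it was 10.49 and 10.44 for base, 10.40 and 10.55 for middle and 10.29 and 10.62 for apex. The P0 regions did not overlap, and the P8 regions did.

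The P0 apex-base difference of Otoa was -0.62 ± 0.16, an apex signal of 0.651 times the base, and did not pass the limma test (adjusted p = 0.707, and 0.0529 with the dissection set as a term). With a term for each pool it was called lower (adjusted p = 0.0132), beside 0.687% of all genes. At P8 the difference was -0.01 ± 0.16 with a 95% interval from -0.37 to 0.36, and its sets disagreed in sign (-0.20 and 0.19). The change between the ages, 0.61 ± 0.23, did not pass in any of these fits (limma adjusted p = 1). From P0 to P8, Otoa differed by -0.19 ± 0.16 (base), 0.09 ± 0.16 (middle) and 0.42 ± 0.16 (apex; limma adjusted p = 0.761, 0.888 and 0.224).

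Ceacam16 had a low signal, not far above the threshold of 6. At P0 its log2 signal in the first and second set was 6.33 and 6.55 for base, 6.37 and 6.42 for middle and 6.46 and 6.57 for apex. The P8 values were 6.61 and 6.76 for base, 6.62 and 6.84 for middle and 6.60 and 6.81 for apex. The second set was the higher in every group, and the base and apex arrays overlapped at each age.

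The apex-base difference of Ceacam16 was 0.07 ± 0.15 at P0 (95% interval -0.27 to 0.41) and 0.02 ± 0.15 at P8 (-0.32 to 0.36). All 6 P8 arrays lay above all 6 P0 arrays, the highest P0 array at 6.57 and the lowest P8 array at 6.60, as for 8.08% of all tested genes. The difference over the 3 regions was 0.26 ± 0.09 (limma adjusted p = 0.0742, and 0.00701 with the dissection set as a term), a fold of 1.19 and thus not called in either fit.

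In P8 over P0 over the 3 regions, 1 of the 6 members (Tecta) was called lower, where 1.14% of all tested genes were, and none was called higher, beside 2.06%. Within the base, Tecta and Otog were called lower beside 1.48% of all genes. Tecta alone was called lower in the middle, beside 1.64%, and in the apex, beside 2.10%. No member was called higher within a region by limma, beside 2.34%, 2.37% and 2.42% of all genes. The base arrays of the ages did not overlap for any of the 6, with Tecta, Otog, Otogl and Otoa lower at P8, as in 19.2% of all genes, and Tectb and Ceacam16 higher, as in 19.5%. The median of the 6 members was -0.36 for base, -0.06 for middle and 0.21 for apex.

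**Figure D4:**
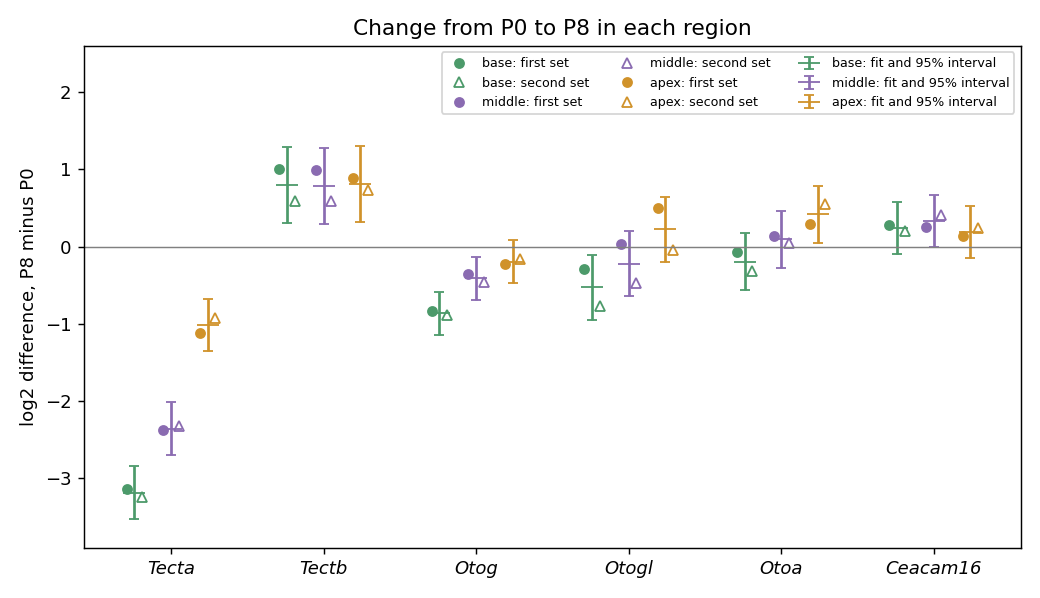
P8 minus P0 log2 difference of the 6 genes in the base (green), middle (purple) and apex (yellow). Circles and triangles are the first and second dissection set, and the dash with its bar is the limma estimate with its 95% interval. Tecta goes from a basal -3.19 to an apical -1.02, and Tectb stays at about 0.8 in each region.

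For the change of that difference between the ages, no member and no other gene passed the limma test, a background of 0%. At an unadjusted p under 0.05, 4 members and 333 genes passed. With the dissection set as a term 1 of the 6, Tecta, passed with a larger difference at P8, beside 0.141% of all genes. In the 4 steps between neighbouring regions no member and no gene was called by limma. At an unadjusted p under 0.05 with the 1.5-fold, the members that passed were 1 (of 22 genes) and 0 (of 58) for the lower and upper step at P0, and 4 (of 95) and 2 (of 51) at P8. The fit with the set term called 3 members for the step from base to middle at P8, beside 0.110% of all genes higher, and 1 for the step from middle to apex, beside 0.0123%.

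Markers of the surrounding cells also varied along the axis. At P8, the 14 genes of supporting cells and the greater epithelial ridge had a mean log2 signal of 9.24 and 9.35 in the 2 base arrays, 9.44 and 9.69 in the middle and 9.60 and 10.02 in the apex. Of these, 11 of 14 had a positive apex-base difference, beside 50.6% of all genes, with a median of 0.35. Jag1, a Notch ligand, was called higher (1.21 ± 0.14, limma adjusted p = 0.0198), beside 0.178% of all genes. Sox2, a transcription factor of supporting cells, had 1.36 ± 0.24 (limma adjusted p = 0.118), and Fgf10, a growth factor gene of the greater epithelial ridge, 1.83 ± 0.36 (0.168). Both were called with the dissection set as a term. In that fit 4 of the 14 genes were called higher, beside 1.13% of all genes. At P0 the list was positive for 10 of 14 genes, beside 57.2% of all genes, with a median of 0.19. With the set term 1 was called higher and 1 lower, beside 0.405% and 0.270% of all genes. Among those lower in the apex were Gjb6, with P0 means of 10.11 (base) and 9.01 (apex), and Gjb2, with 11.85 and 11.46. Gjb2 was also lower in the apex at P8 (12.44 and 12.19).

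The same list over age was mixed. Fgf10 fell by 1.39 and Prox1, another transcription factor of supporting cells, by 1.38 over the 3 regions, while Gjb6, a gap junction gene, was higher by 1.43 (limma adjusted p = 0.00218, 4.35e-05 and 8.25e-05). The 10 hair cell genes were all positive in P8 apex over base, as were 50.6% of all genes, with a median of 0.38 beside 0.00 over all genes. None was called by limma, beside 0.178% of all genes higher, and 2 with the set term, beside 1.13%. The 3 vestibular and otoconial genes, listed because vestibular organs also make tectorins and otogelins, had medians of 0.10 at P0 and 0.20 at P8. Of these, Oc90 had P0 group means of 12.54 to 12.78, and Otol1 and Otop1 of 7.16 to 7.83. The list was therefore not read as an amount of vestibular tissue. The 6 genes of the stria vascularis were all lower in the apex, with medians of -0.53 at P0 and -0.41 at P8. Of all genes, 57.2% and 50.6% had a positive difference at those ages. With the set term 2 of the 6 were called lower at P0, beside 0.270% of all genes, and none at P8, beside 0.442%. The part of these cells in the member differences was not tested.

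The collagen genes of the membrane had mostly negative apex-base differences. The list held the genes of collagen types that form its fibrils (Col2a1, Col5a1, Col5a2, Col9a1, Col9a2, Col9a3, Col11a1 and Col11a2), and all 8 were tested. Their median apex-base difference was -0.20 at P0, with 2 of 8 positive, beside 57.2% of all genes. At P8 it was -0.47, with 1 of 8 positive, beside 50.6%. None was called by limma in either, and the P8 fit with a dissection set term gave 2 called lower, beside 0.442% of all genes.

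Col11a1 was the collagen with the largest P8 difference. Its log2 signal in the first and second set was 11.85 and 10.81 in P8-base, 11.38 and 10.39 in P8-middle and 11.04 and 10.20 in P8-apex. The first set was higher than the second in every region, by more than the apex and base differed within a set, and within each set the signal was lower toward the apex. The difference was -0.72 ± 0.53 (limma adjusted p = 1, and 0.00992 with the dissection set as a term). For Col5a2 it was -0.62 ± 0.55 (limma adjusted p = 1, and 0.0256). Over the 3 regions the collagens had a median P8 minus P0 difference of 0.46, with 6 of 8 positive, beside 49.8% of all genes. None was called by limma. In the fit with the dissection set as a term none reached the 2-fold over the 3 regions, while at 1.5-fold within single regions 4 of 8 were called higher at P8 for base, 2 for middle and 2 for apex, beside 6.27%, 6.16% and 6.00% of all genes. These collagens also occur in cartilage, bone and the lateral wall, and the bone list moved the same way in P8 apex over base (3 of 3 lower, median -1.25). Its part in the collagen differences was not tested.

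**Figure D5:**
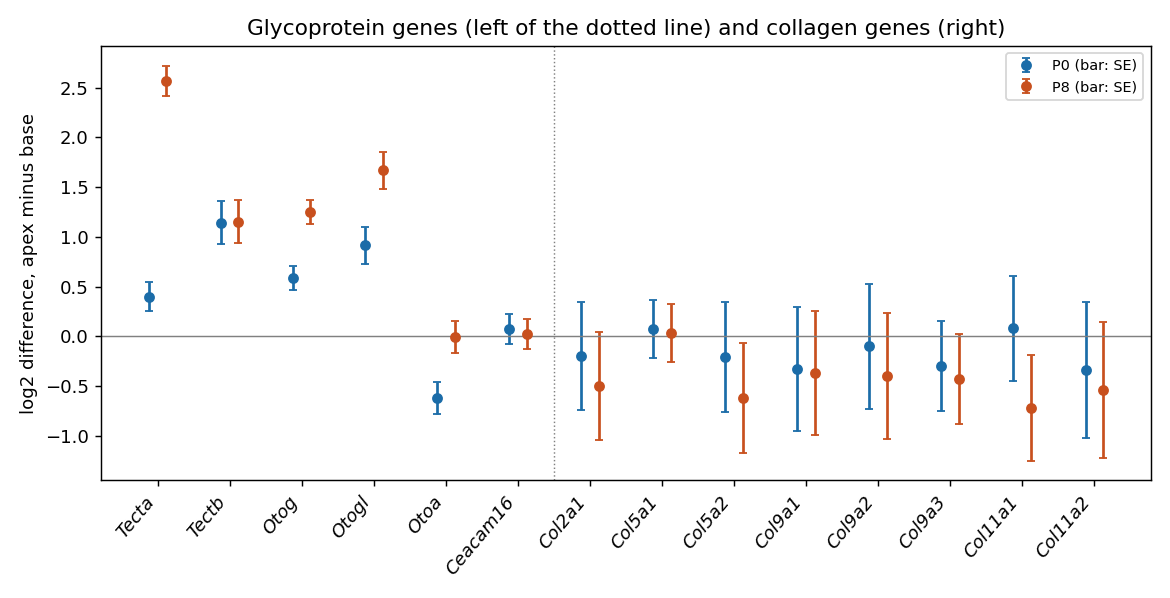
Apex minus base log2 difference of the 6 glycoprotein genes (left of the dotted line) and of 8 fibril collagen genes (right) at P0 (blue) and P8 (orange), with the SE of the limma fit as bars. At P8 the points of Tecta, Tectb, Otog and Otogl lie above 1.1 and those of the collagens between -0.72 and 0.03.

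Among 7 tested genes of other inner ear gels, attachments and ZP-domain proteins, the nearest to the apical pattern was Zpld1, a ZP-domain protein of the semicircular canal cupula. Its log2 signal in the first and second set was 6.27 and 6.12 in P0-base, 6.83 and 6.65 in P0-middle and 8.35 and 8.13 in P0-apex. At P8 it was 6.27 and 5.88 for base, 6.93 and 6.25 for middle and 8.06 and 7.24 for apex. The apex arrays lay above all others of their age. The base means, 6.20 at P0 and 6.07 at P8, were close to the threshold of 6. The apex-base difference was 2.04 ± 0.30 at P0 and 1.58 ± 0.30 at P8 (limma adjusted p = 0.188 and 0.143, and 0.000778 and 0.000923 with the dissection set as a term).

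Umodl1, another gene of a ZP-domain protein, was not called along the cochlea and was higher at P8. Its P0 arrays lay between 6.41 and 6.80 and its P8 arrays between 8.87 and 9.51, a rise of 2.52 ± 0.10 over the 3 regions (limma adjusted p = 3.63e-06). Oc90, the gene of a major matrix protein of otoconia, fell by 1.03 on the log2 scale over the 3 regions (SE 0.15, limma adjusted p = 0.00166). Strc, the gene of stereocilin, which links outer hair cell bundles to the tectorial membrane, had apex-base differences of -0.40 ± 0.20 at P0 and 0.30 ± 0.20 at P8, neither called in either fit.

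Among 4 tested genes of stereocilia links, Strc included, no gene was called by limma along the axis. Ptprq, a phosphatase of the hair bundle's shaft connectors, had a P8 apex-base difference of 1.08 ± 0.31 (limma adjusted p = 0.514, and 0.00761 with the dissection set), after -0.36 ± 0.31 at P0. Pcdh15, a tip link cadherin, had 1.11 ± 0.27 at P0 and 0.73 ± 0.27 at P8 (limma adjusted p = 0.615 and 0.960, and 0.00291 and 0.00889 with the dissection set). The set term thus called 1 of the 4 higher in the P0 apex (Pcdh15), beside 0.405% of all genes. In the P8 apex it called 2 higher (Ptprq and Pcdh15), beside 1.13%. The list had a median of -0.07 at P0 and 0.63 at P8. For the change of the apex-base difference between the ages, none of the 4 passed by limma. With the dissection set as a term 1 of the 4 passed with a larger difference at P8, beside 0.141% of all genes.

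The genes whose signal ran most like each member over the 12 arrays were ranked by Pearson's r among all 16306 tested genes, as a description, since the arrays share pools and differ in age and set. For Tecta these were Sdk1, a cell adhesion gene (0.972), Sfrp2, a secreted Wnt modulator (0.969), and Tnc, the gene of tenascin C (0.969). Within the 6 arrays of P8 the values were 0.971, 0.943 and 0.976, and within those of P0 0.826, 0.270 and 0.826. For Tectb they were Grm7 (0.954), Aldh3a2 (0.943) and Ndnf (0.943). For Otog they were Ptprf (0.988), a receptor phosphatase, Mybpc1 (0.965) and Pla2r1 (0.963). For Otogl they were Muc15 (0.980), a membrane mucin, Plch1 (0.959) and Qrfprl (0.945). For Otoa the highest were lower, at 0.837 for Wee2, 0.833 for Angptl7 and 0.820 for Cldn11, a tight junction gene of strial basal cells. For Ceacam16, whose second set was the higher in every group, they were Camk2d (0.961), Heyl (0.957) and Aebp1 (0.955).

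Among the members themselves, Otog and Otogl had an r of 0.894 over the 12 arrays and Tecta and Otog 0.878. Tecta and Tectb had -0.158 over all arrays, but 0.994 within the 6 arrays of P0 and 0.931 within those of P8, which hold 2 pools of 3 regions each.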

How the data were processed

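Expression was measured on 12 Affymetrix Mouse Gene 1.0 ST arrays. Per the study's methods, the authors processed the scanned images in Affymetrix Command Console and obtained expression values by robust multiarray averaging (RMA). The deposited values are log2 RMA signals, and whether both dissection sets went through 1 RMA run is not given in the sources used here. Of 35556 entries, 21789 carried 1 gene symbol; those with several (1621) or none (12146) were left out. The tested genes were those with a mean above log2 6 in at least 1 group.

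All 6 group means were fitted in 1 model with limma 3.58.1 in R 4.3.3 (lmFit, eBayes; two-sided tests, Benjamini-Hochberg adjustment over 16306 genes). Calls needed an adjusted p under 0.05 and a fold of at least 1.5 (2 over the 3 regions, none for the change of the apex-base difference). No probe-level data were used, so the precision rests on 2 arrays a group. In the fit without a block, p-values rest on the spread between the 2 arrays of a group, which come from different pools. That spread is averaged over all 6 groups, also those not compared, and drawn toward a value common to all genes. Regions of 1 age and set share a pool, so the arrays are not all independent. With the set or pool as a term, the shift that its arrays share is taken out, and p-values rest on the remaining spread. The named genes were the 6 members, the 3 tested genes most like each by Pearson's r, and, of each list, the genes called or the most changed. The members and lists were chosen with earlier results of these data known.

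The dissection set pairs the arrays: regions of 1 age and set share a pool, and the deviations of the sets from the group means correlated at 0.697 to 0.916 within an age and 0.544 to 0.916 over all 15 pairs of groups. The fit with the set as a block, a block per pool, other scalings, filters and entries, the methods' t-test (unpaired), and leaving out each array were run as alternatives. Blocked fits that also left out an array were chosen after the data were seen. Promoter sequences are from RefSeq on GRCm38.p6; no protein sequences were used here.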

Additional observations from a re-analysis of the deposited data

Results flagged for a closer look

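The apex-base difference of Tecta was larger at P8 than at P0 by 2.17 log2 units (SE 0.21; groups of 2 arrays). It is listed because the test of the difference between the ages passed with the dissection set as a block (limma adjusted p = 0.000584); without the block it did not pass (limma adjusted p = 0.0581), and this basis for listing was chosen after that result was seen. In the first and second set the apex-base difference was 0.42 and 0.38 at P0, and 2.44 and 2.70 at P8. Under the block it passed in 12 of the 12 fits that left out an array, with values from 2.09 to 2.25 and an adjusted p of up to 0.0146.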

How the results depend on the processing

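With 2 arrays a group, the limma counts of called members depended on the fit. In P0 apex over base the count of 0 became 2 with the replicate block (dissection set), 3 with a block per pool and 2 with the methods' t-test unadjusted. In P8 apex over base the count of 3 became 1 when all entries were tested, and 0 with only the compared arrays or the methods' t-test adjusted. In P8 over P0 within the regions the count of 4 became 7 with the replicate block, 2 with only the compared arrays and 0 with the t-test adjusted. In the change of the apex-base difference the count of 0 became 1 with the replicate block, 2 with the pool block, and 1 with centred arrays and 1 with quantile normalization. In the steps it became 4, 7, 1 with quantile normalization, and 6 with the t-test unadjusted. Leaving out an array gave 1 to 3 members in P8 apex over base, 3 to 4 within the regions, and 0 in P0 apex over base, the steps and the change of the difference.

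Over all genes, the counts for P0 and P8 apex over base were 1 and 32 in the limma fit, 110 and 257 with the replicate block, 231 and 458 with the pool block, 71 and 155 with the t-test unadjusted, and 0 with it adjusted. Leaving out an array gave 1 to 17 in P8 apex over base and 0 in P0 apex over base. The P8 over P0 calls within the regions came to 2016, and to 5476 with the replicate block, 146 with only the compared arrays and 0 with the t-test adjusted. The change of the difference had 0, 29 and 151 in the 3 fits, and the steps 0, 29 and 180.

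Of 1531 further values of single members, 1434 kept direction and side of the threshold, 24 lost and 39 gained the call, and 34 changed sign, each of these uncalled. Centring gave Otoa 0.0191 in P8 apex over base and 0.0088 in P8 apex over middle, and Ceacam16 0.00153 in P8 apex over middle and 0.0324 in the change of the difference. Quantile normalization gave Otoa 0.0448 and 0.0196 in the same P8 comparisons, and Ceacam16 -0.0307 in P8 apex over base and 0.00539 in P0 middle over base. Leaving out an array changed the sign for Otoa in P8 apex over base (-0.18 to 0.16), apex over middle (-0.19 to 0.15), middle over base (-0.0653 to 0.0904) and P8 over P0 in the middle (-0.0310 to 0.22). For Ceacam16 the ranges were -0.0414 to 0.19 and -0.0841 to 0.13 in P0 and P8 apex over base, -0.16 to 0.0679 and -0.0566 to 0.15 in P0 and P8 middle over base, -0.13 to 0.0802 in P8 apex over middle and -0.16 to 0.0637 in the change of the difference. In P0 apex over middle they were -0.0469 to 0.12 for Tecta and -0.0447 to 0.47 for Tectb, and in the change of the difference -0.21 to 0.23 for Tectb. The cause was not tested. The pool block gives no P8 over P0 value, the t-test was not run for the change of the difference, and the fit of only the compared arrays was not run over the 3 regions.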
